A study of Canis lupus with 20 samples.

Results

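Oxidative phosphorylation genes were followed across the left atrium and left ventricle of dogs, complex by complex. The members were chosen by gene symbol: every gene with a probe set annotated to a single symbol that begins with NDUFA, NDUFB, NDUFC, NDUFS, NDUFV, UQCR, COX4 to COX8 or ATP5, or is SDHA, SDHB, SDHC, SDHD or CYC1. The rule found 140 probe sets of 71 genes, out of 15115 genes with a single symbol on the array. Each gene was represented by its probe set with the highest mean over the 20 arrays, and 70 of the 71 genes passed the filter on dim probe sets, which used that mean over all arrays. The member that did not pass was NDUFA4L2. Complex I gave 40 genes, of which 7 are NDUFAF assembly factors that the symbol pattern also catches, complex II gave 4, complex III 8, complex IV 9 and complex V 10.

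The dogs had the right kidney removed (uninephrectomy, UNX) or a sham operation, and heart tissue was taken 12 weeks later. The groups were uninephrectomized atrium, sham atrium, uninephrectomized ventricle and sham ventricle, with 5 arrays in each and 1 array per tissue sample. All animals are described as normal dogs, and although 6 were assigned per operation, each chamber contributed 5 arrayed samples. The labels give no age, breed, sex or identity of the dogs, so the p-values measure the spread between tissue samples. Deposited array medians lay between 2.33 and 2.39, and 3 ventricular marker genes (MYL2, MYL3, IRX5) and 4 atrial ones (MYL4, MYL7, NR2F1, NR2F2) separated the chambers as labelled. Sham atrium 5 and uninephrectomized atrium 2 stood apart in the members themselves: 68 and 63 of the 70 members lay below their group mean there, and the counts are given with and without them.

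Oxidative phosphorylation takes place in the inner mitochondrial membrane. Complex I (NADH dehydrogenase) and complex II (succinate dehydrogenase) pass electrons to ubiquinone, complex III passes them to cytochrome c, complex IV reduces oxygen, and the proton gradient built on the way drives ATP synthase, complex V. Heart muscle depends on this pathway for most of its ATP, and its subunits are among the most abundant transcripts of cardiomyocytes. The mitochondrially encoded subunits are outside the rule, so every member is a nuclear gene.

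Every member called between the chambers was lower in the atrium than in the ventricle, in both operation groups. Values are log2 signals, differences are atrium minus ventricle ± standard error (SE) from a limma fit of all 20 arrays, and the threshold for a call was 0.05 after Benjamini-Hochberg adjustment over all 30047 probe sets tested. Where 2 differences are given for a gene, the first is of uninephrectomized and the second of sham dogs. In uninephrectomized dogs 35 of 70 members were lower in the atrium and 0 were higher, where 12.5% of all probe sets tested were called lower and 14.7% higher. In sham dogs 28 of 70 were lower and 0 higher, against 9.62% lower and 11.2% higher of all probe sets. Since members are bright, the closer background is the 1706 probe sets with a mean log2 of 10 or more: 28.1% of these were called lower and 24.2% higher in uninephrectomized dogs, and 24.2% lower and 18.6% higher in sham dogs. Only 8 of the 70 tested members have a mean log2 under 10.

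The differences were small and nearly all of one sign. The median member difference was -0.21 (-13.5%) in uninephrectomized dogs and -0.19 (-12.4%) in sham dogs, against -0.02 and -0.01 over all probe sets and -0.05 and -0.05 over the bright ones. Negative differences were found for 67 of 70 members in uninephrectomized dogs, where 53% of all probe sets were negative, and for 66 in sham dogs, where 51.1% were. Every atrial array lay below every ventricular array for 36 members in uninephrectomized dogs (9.57% of all probe sets) and for 21 in sham dogs (6.67%), and for 0 members was it the other way round. The 2 comparisons share no arrays, but both take the variance of each gene from the same fit, so their calls are not independent. In that fit, members called lower in both comparisons numbered 26, which is 74.3% of the uninephrectomized list and 92.9% of the sham list. Of all probe sets 7.42% were lower in both. The shares given here for sign, separation and calls in both comparisons are over all probe sets, not over the closer background of bright ones. With only the sham groups in the fit, 21 members were called lower in sham dogs. With only the uninephrectomized groups, 33 were called lower in uninephrectomized dogs. The 33 members called in neither comparison were 20 of 40 in complex I and 7 of 10 in ATP synthase. Complex IV had 4 of 8, complex II 1 of 4 and complex III 1 of 8.

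Calls depended on the probe set for some genes. A second tested probe set exists for 43 members. In uninephrectomized dogs 20 of these were called lower by the brightest probe set, of which the next one was also called for 17, and 23 were not called by the brightest, of which the next was called lower for 4. In sham dogs the next probe set was called for 10 of 18 called members and for 3 of 25 uncalled ones.

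**Figure D1:**
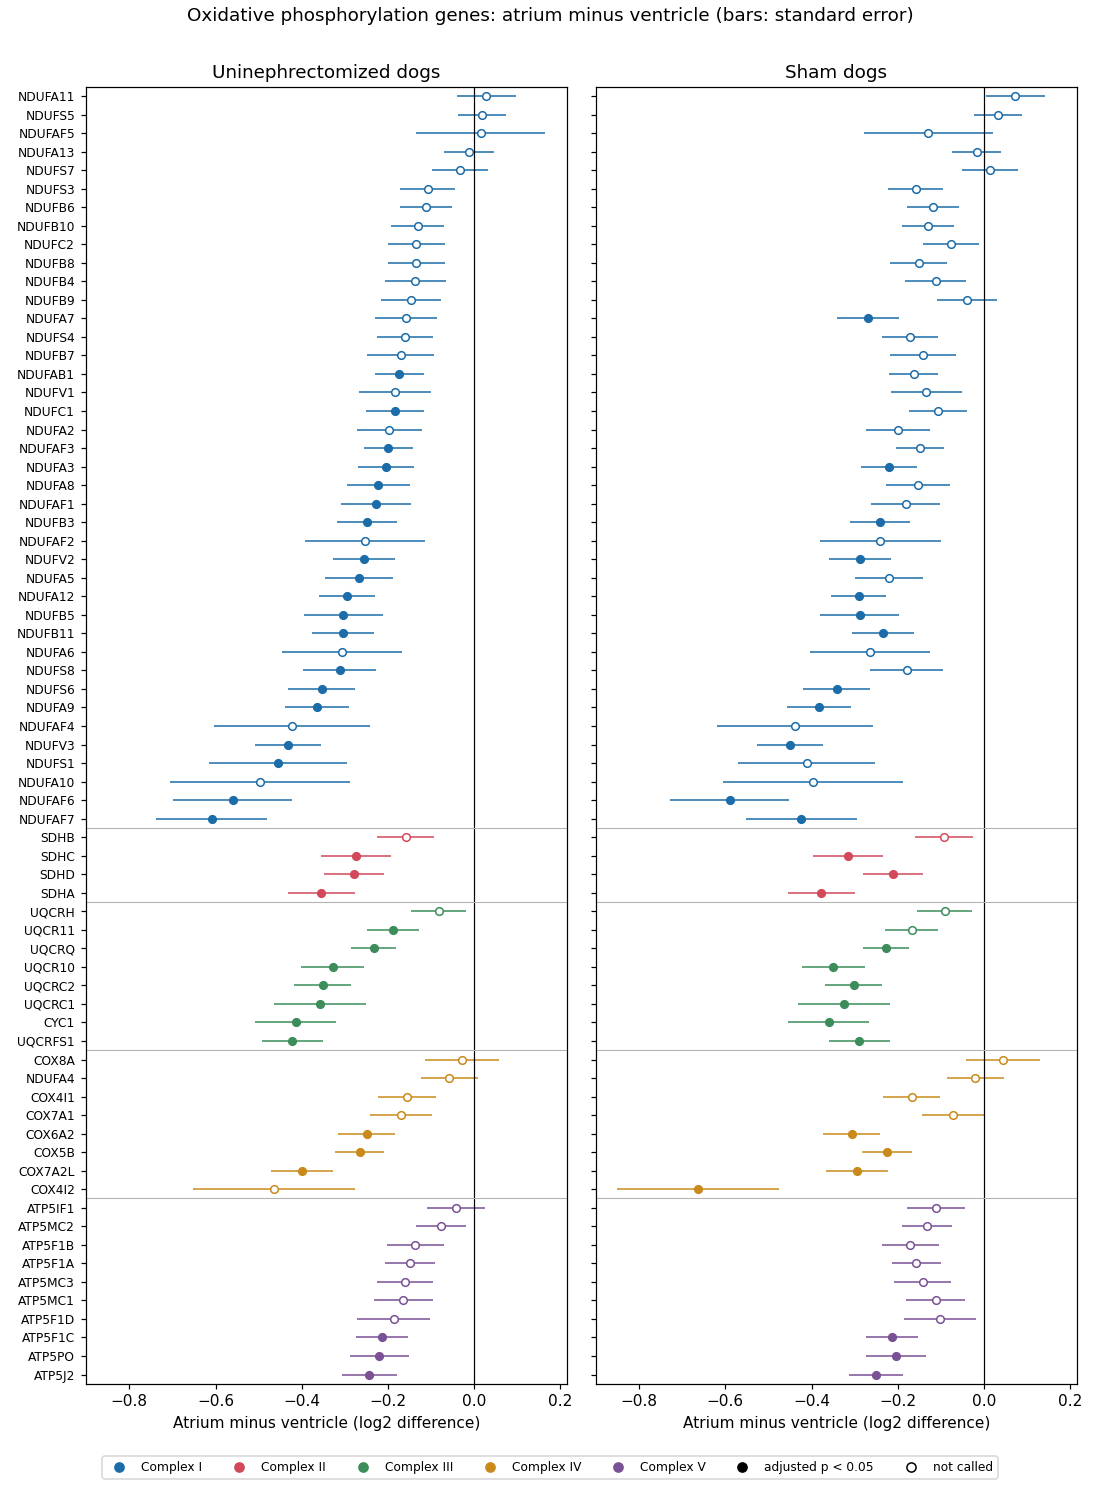
Atrium minus ventricle difference (x axis, log2, bars: SE) of each of the 70 tested members, grouped by complex, in uninephrectomized dogs on the left and sham dogs on the right, with 5 arrays per group. Filled points passed an adjusted p of 0.05: 35 members in uninephrectomized and 28 in sham dogs, all with negative differences. Complexes II and III hold most of their members on the filled side. In uninephrectomized and sham dogs, complex I has 19 and 12 of 40 filled. Complex IV has 3 and 4 of 8, and complex V 3 of 10 in each.

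Averaged over the members of an array, the signal was 11.68 ± 0.08 in uninephrectomized atria and 11.91 ± 0.02 in uninephrectomized ventricles (SD, n = 5 each), and 11.70 ± 0.10 in sham atria and 11.91 ± 0.05 in sham ventricles. The 10 atrial arrays ranged from 11.55 to 11.79 and the 10 ventricular arrays from 11.87 to 11.99, so the chambers did not overlap. The lowest arrays were sham atrium 5 at 11.55 and uninephrectomized atrium 2 at 11.56. Without uninephrectomized atrium 2 25 members were called lower in uninephrectomized dogs, and without sham atrium 5 the sham count was 19.

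**Figure D2:**
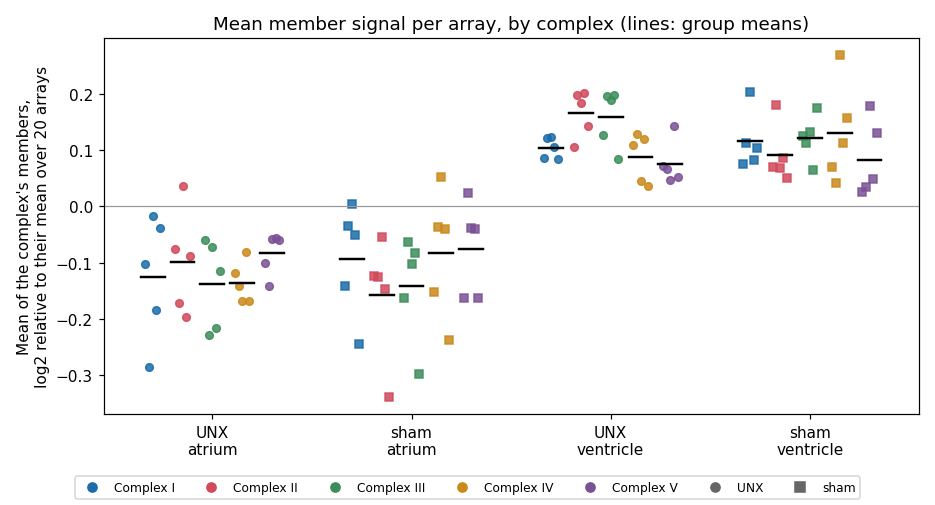
Mean signal of the tested members of each complex on each array (y axis, log2, relative to the members' mean over the 20 arrays), by group, with circles for uninephrectomized (UNX) and squares for sham dogs and lines at the group means. Complex means of the ventricular arrays all lie above 0. Those of the atrial arrays lie below it except for 1 complex II value in uninephrectomized atria and 1 each of complexes I, IV and V in sham atria.

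Cell type markers moved with the chamber. The cardiomyocyte markers tested were TNNT2, TNNI3, ACTC1, RYR2, MYH7, PLN, MB and ACTN2. Of 8 tested cardiomyocyte markers 5 were lower in the atrium in each comparison, with medians of -0.35 in uninephrectomized and -0.29 in sham dogs, and the list's mean per array ranged from 13.34 to 13.48 in uninephrectomized atria and from 13.64 to 13.87 in uninephrectomized ventricles, and from 13.41 to 13.55 in sham atria and from 13.63 to 13.85 in sham ventricles. Fibroblast markers went the other way: 6 of 7 tested were higher in the atrium in uninephrectomized dogs and 5 in sham dogs, with medians of 1.58 and 1.35, and list means from 8.86 to 9.58 in uninephrectomized atria against 7.52 to 8.05 in their ventricles, and from 8.21 to 9.29 in sham atria against 7.53 to 7.98 in theirs. TCF21, a defining fibroblast factor, lay below the filter. Of 7 smooth muscle and pericyte markers 4 were higher and 2 lower in uninephrectomized dogs and 3 higher in sham dogs, and of 5 adipocyte markers 1 and 3 were higher. Of 7 endothelial markers 2 were lower in each comparison, 1 of 7 macrophage markers was higher in uninephrectomized dogs, and the tested lymphocyte, red cell and neutrophil markers were not called. In tissue samples, fewer cardiomyocytes and less RNA of the marker or member genes per cardiomyocyte cannot be told apart. The part of these markers in the members' differences was not tested.

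**Figure D3:**
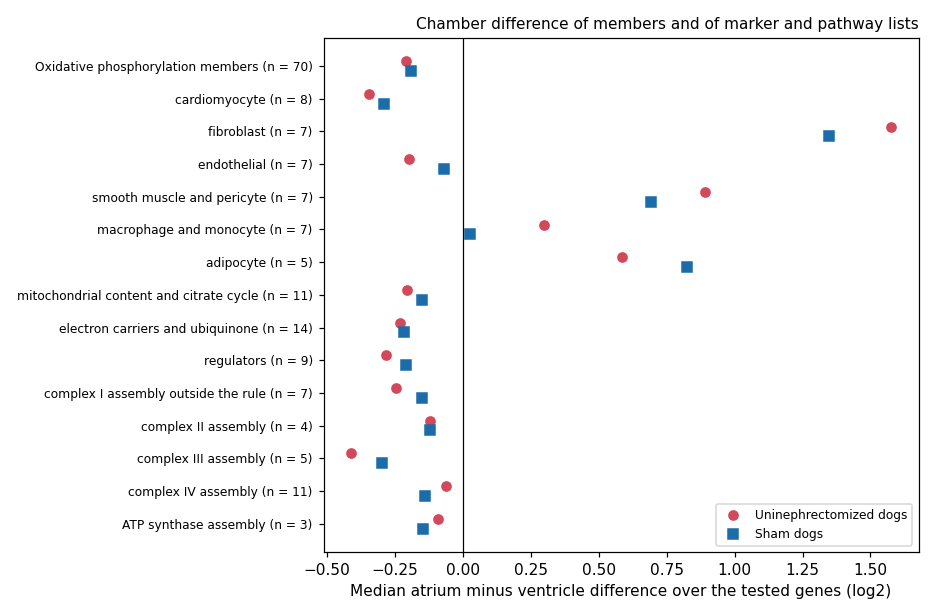
Median atrium minus ventricle difference (x axis, log2) over the tested genes of the members and of each marker or pathway list, with circles for uninephrectomized and squares for sham dogs. Members sit at -0.21 and -0.19, cardiomyocyte markers at -0.35 and -0.29, and fibroblast markers at 1.58 and 1.35.

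Complex III, ubiquinol-cytochrome c reductase, had the largest median difference of the 5 complexes in both comparisons, though differences between complexes were not tested. In uninephrectomized dogs 7 of its 8 genes were lower in the atrium, with a median of -0.34, and in sham dogs 6 of 8, with a median of -0.30. Complex II had the same share called in sham dogs. With quantile normalization the sham median of complex III was -0.21, with 3 genes called, and that of complex II -0.24, with 2 of 4 called. UQCRFS1 encodes the Rieske iron-sulfur protein, which takes electrons from ubiquinol. Its signal was 13.19, 13.07, 13.06, 13.14 and 13.24 in uninephrectomized atria, against 13.46, 13.58, 13.63, 13.63 and 13.52 in uninephrectomized ventricles. In sham atria it was 13.29, 13.44, 13.35, 13.38 and 13.00, against 13.60, 13.54, 13.59, 13.55 and 13.63 in sham ventricles. All atrial values lay below all ventricular values, with differences of -0.42 ± 0.07 (adjusted p = 0.000206) in uninephrectomized and -0.29 ± 0.07 (adjusted p = 0.00638) in sham dogs. The sham call is lost with quantile normalization. The gene's second probe set was also called lower, at -0.32 and -0.27.

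CYC1 encodes cytochrome c1, the heme subunit that hands electrons to cytochrome c. It read 10.74, 10.61, 10.91, 10.47 and 10.70 in uninephrectomized atria and 10.99, 11.18, 11.22, 11.17 and 10.94 in the ventricles of the same operation group. The sham values were 10.73, 10.59, 10.66, 10.74 and 10.38 in atria and 11.08, 11.16, 10.79, 10.87 and 11.00 in ventricles. The chambers separated fully in each operation group, with differences of -0.41 ± 0.09 (adjusted p = 0.00272) in uninephrectomized dogs and -0.36 ± 0.09 (adjusted p = 0.00972) in sham dogs. The matrix-side core proteins UQCRC1 and UQCRC2 were lower too: UQCRC1 at -0.36 ± 0.11 and -0.32 ± 0.11, and UQCRC2 at -0.35 ± 0.07 and -0.30 ± 0.07. The UQCRC1 calls are marginal: that of sham dogs (adjusted p = 0.0378) is lost in 9 alternatives, 7 of which leave out 1 array, and that of uninephrectomized dogs (adjusted p = 0.0182) in 5. Its second probe set was called in uninephrectomized dogs at -0.42 and not in sham dogs at -0.29 (adjusted p = 0.189). Of UQCRC2's 3 other probe sets, the one with a mean of 10.43 was also lower in both comparisons, while the dimmest, with a mean of 3.34, was called higher at 0.72 and 0.70, so the gene's probe sets disagree. The small subunits UQCR10 and UQCRQ were called in both comparisons, and UQCR11 in uninephrectomized dogs at -0.19 ± 0.06, with -0.17 ± 0.06 (adjusted p = 0.0592) in sham dogs. The UQCR11 call is lost in 6 alternatives, and its next probe set was not called in either comparison.

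UQCRH, the hinge protein that helps cytochrome c1 and cytochrome c meet, was the member of complex III called in neither comparison. It is the brightest probe set of the complex, at 13.77, 13.79, 13.63, 13.89 and 13.75 in uninephrectomized atria and 13.83, 13.84, 13.80, 13.96 and 13.80 in uninephrectomized ventricles. Sham atria had 13.67, 13.89, 13.79, 13.77 and 13.77, and sham ventricles 13.79, 13.73, 13.95, 13.86 and 14.02. The chambers overlapped, and the differences of -0.08 ± 0.06 and -0.09 ± 0.06 change sign to 0.14 and 0.12 when the arrays are quantile normalized, where the value in uninephrectomized dogs was called higher (adjusted p = 0.0198).

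Complex II, succinate dehydrogenase, links the citrate cycle to the electron transport chain, and all 4 of its subunits were measured. SDHA, SDHC and SDHD were lower in the atrium in both comparisons. SDHA carries the flavin that oxidizes succinate, and read 12.11, 11.92, 12.18, 11.77 and 12.04 in uninephrectomized atria, against 12.30, 12.39, 12.46, 12.37 and 12.27 in uninephrectomized ventricles. In sham dogs the atria had 11.99, 11.91, 11.85, 11.82 and 11.79 and the ventricles 12.24, 12.45, 12.14, 12.15 and 12.28. The chambers did not overlap, and the differences were -0.35 ± 0.08 (adjusted p = 0.00209) in uninephrectomized and -0.38 ± 0.08 (adjusted p = 0.00171) in sham dogs.

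SDHC and SDHD anchor the enzyme in the membrane and bind ubiquinone. SDHC, the brightest probe set of complex II, had 12.33, 12.33, 12.44, 12.37 and 12.52 in uninephrectomized atria and 12.58, 12.77, 12.59, 12.78 and 12.62 in uninephrectomized ventricles. Its sham values were 12.16, 12.34, 12.47, 12.27 and 12.02 in atria and 12.42, 12.55, 12.73, 12.63 and 12.49 in ventricles. The chambers separated in uninephrectomized dogs, with a difference of -0.27 ± 0.08 (adjusted p = 0.0167). In sham dogs sham atrium 3 at 12.47 lay above sham ventricle 1 at 12.42, and the difference was -0.32 ± 0.08 (adjusted p = 0.00867). Both further SDHC probe sets were called lower in each comparison. SDHD differed by -0.28 ± 0.07 and -0.21 ± 0.07, both called, but in sham dogs the call is lost with the replicate block (adjusted p = 0.0603) and in 8 other alternatives, among them those without sham atrium 2, 4 or 5 or sham ventricle 1, 2 or 4. SDHB, the iron-sulfur subunit between flavin and ubiquinone, differed by -0.16 ± 0.07 (adjusted p = 0.0850) and -0.09 ± 0.07 (adjusted p = 0.363) and was not called.

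Complex I is the largest complex of the chain, and its members were split between called and uncalled. In uninephrectomized dogs 19 of 40 genes were lower in the atrium (median -0.20) and in sham dogs 12 of 40 (median -0.18). Without uninephrectomized atrium 2 the count in uninephrectomized dogs was 11. Of the 6 core subunits measured, which include those that carry the flavin and the iron-sulfur clusters, 3 were lower in uninephrectomized dogs and 1 in sham dogs. Of the 27 supernumerary subunits 12 and 9 were lower, and of the 7 NDUFAF assembly factors 4 and 2. NDUFV2, a core subunit next to the flavin site, was called in both comparisons at -0.25 ± 0.07 and -0.29 ± 0.07.

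NDUFV3 is a supernumerary subunit of the NADH-oxidizing tip of complex I. It had 10.43, 10.30, 10.38, 10.32 and 10.38 in uninephrectomized atria, against 10.78, 10.84, 10.95, 10.68 and 10.72 in uninephrectomized ventricles. Sham atria read 10.34, 10.16, 10.15, 10.33 and 10.15, against 10.78, 10.49, 10.84, 10.50 and 10.77 in sham ventricles. No atrial value reached a ventricular one, and the differences were -0.43 ± 0.08 (adjusted p = 0.000324) and -0.45 ± 0.08 (adjusted p = 0.000304), the smallest adjusted p of any member in sham dogs. NDUFA9, a supernumerary subunit near the ubiquinone site, had 11.79, 11.72, 11.89, 11.71 and 11.81 in uninephrectomized atria and 12.07, 12.19, 12.13, 12.23 and 12.12 in uninephrectomized ventricles. In the sham group it had 11.78, 11.66, 11.97, 11.84 and 11.49 in atria and 12.12, 12.04, 12.24, 12.12 and 12.14 in ventricles. The chambers again did not overlap, at -0.36 ± 0.07 (adjusted p = 0.00121) and -0.38 ± 0.07 (adjusted p = 0.00107).

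NDUFS1, the largest core subunit and the holder of several iron-sulfur clusters, varied more between samples, with a pooled SD of 0.27 where the median member's was 0.10. Uninephrectomized atria ranged widely, at 11.43, 11.24, 11.71, 10.65 and 11.32, and uninephrectomized ventricles had 11.65, 11.96, 11.81, 11.90 and 11.32. Sham atria had 11.31, 11.11, 11.04, 11.08 and 10.88, and sham ventricles 11.66, 11.68, 11.22, 11.38 and 11.53. The chambers overlapped in both operation groups. It was called in uninephrectomized dogs at -0.45 ± 0.16 (adjusted p = 0.0413), a call lost in 10 of the alternatives. Those include leaving out uninephrectomized atrium 2, 4 or 5 or uninephrectomized ventricle 1, 2, 3 or 4, and without atrium 4 the difference was -0.30. In sham dogs its difference was -0.41 ± 0.16 (adjusted p = 0.0765). A second probe set, with a mean of 11.32, was called lower in both, at -0.48 and -0.41.

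NDUFS8, a core subunit that carries iron-sulfur clusters, read 11.34, 11.12, 11.55, 11.12 and 11.29 in uninephrectomized atria and 11.53, 11.53, 11.69, 11.72 and 11.51 in uninephrectomized ventricles. Sham values were 11.19, 11.25, 11.40, 11.39 and 11.14 in atria and 11.43, 11.61, 11.49, 11.37 and 11.35 in ventricles. It was called in uninephrectomized dogs at -0.31 ± 0.08 (adjusted p = 0.00930), with -0.18 ± 0.08 (adjusted p = 0.145) in sham dogs, and its chambers overlapped in both. NDUFS3, a core subunit without a cofactor, had 12.07, 11.92, 12.20, 11.99 and 12.08 in uninephrectomized atria and 12.08, 12.20, 12.20, 12.14 and 12.17 in uninephrectomized ventricles. The sham arrays gave 12.13, 12.20, 12.06, 12.04 and 12.04 in atria and 12.26, 12.26, 12.34, 12.06 and 12.34 in ventricles. Neither difference was called, at -0.11 ± 0.06 and -0.16 ± 0.06. NDUFS7, another core subunit, had differences of -0.03 and 0.01.

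The supernumerary subunits NDUFS6, NDUFA12, NDUFB3, NDUFB5, NDUFB11 and NDUFA3 were lower in both comparisons, with differences between -0.35 and -0.20. In sham dogs the calls of NDUFB5, NDUFB11, NDUFA3 and NDUFB3 are lost in 9, 7, 3 and 2 alternatives. The replicate block is among them for NDUFB5 (adjusted p = 0.0696) and NDUFB11 (adjusted p = 0.0542). The next probe set of NDUFB5 was called in neither comparison, and that of NDUFA3 was not called in sham dogs. NDUFA5, NDUFA8, NDUFAB1 and NDUFC1 were called by their brightest probe set in uninephrectomized and not in sham dogs, and the test of the difference between the operation groups called none of them. These calls are lost in 1 alternative for NDUFA5, 6 for NDUFA8, 6 for NDUFAB1 and 11 for NDUFC1. The second probe set of NDUFC1 (mean 10.63) was called lower in both operation groups, at -0.46 (adjusted p = 0.000753) and -0.32 (adjusted p = 0.0143). NDUFAB1, which doubles as the mitochondrial acyl carrier protein, has 6 probe sets that disagree: one with a mean of 8.48 was called higher in uninephrectomized dogs at 0.40, and a dim one with a mean of 4.65 was lower by far more, at -3.15 and -3.05. NDUFA7 was called in sham dogs and not in uninephrectomized dogs, by the brighter of a nearly equal pair of probe sets. It read 11.11, 10.96, 11.24, 11.14 and 11.18 in uninephrectomized atria and 11.38, 11.25, 11.29, 11.30 and 11.21 in uninephrectomized ventricles, a difference of -0.16 ± 0.07 (adjusted p = 0.109). In sham dogs it read 11.07, 11.25, 11.20, 11.12 and 10.94 in atria and 11.25, 11.39, 11.57, 11.33 and 11.38 in ventricles, a difference of -0.27 ± 0.07 (adjusted p = 0.0110). The difference between them was 0.11 ± 0.10 (adjusted p = 1.00). The other probe set (mean 11.19) differed by -0.13 in each operation group and was called in neither (adjusted p = 0.236 and 0.230).

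NDUFB6, a membrane arm subunit and the brightest complex I probe set, had 13.16, 13.04, 13.08, 13.20 and 13.22 in uninephrectomized atria and 13.24, 13.31, 13.22, 13.23 and 13.24 in uninephrectomized ventricles. Sham atria gave 13.10, 13.38, 13.17, 13.14 and 13.08, and sham ventricles 13.26, 13.20, 13.38, 13.30 and 13.31. Its arrays separated by chamber in uninephrectomized dogs, yet neither difference was called, at -0.11 ± 0.06 and -0.12 ± 0.06. Without sham atrium 2 it is called in sham dogs at -0.17, and a dimmer probe set of the gene (mean 8.12) was called lower in both comparisons, at -0.56 (adjusted p = 0.00231) and -0.43 (adjusted p = 0.0197). NDUFB9, also of the membrane arm, had 12.03, 11.92, 11.99, 11.92 and 12.01 in uninephrectomized atria and 12.09, 12.17, 12.14, 12.14 and 12.07 in uninephrectomized ventricles. Its sham arrays had 11.94, 12.03, 12.20, 12.05 and 11.84 in atria and 11.96, 12.13, 12.25, 12.01 and 11.91 in ventricles. The chambers separated in uninephrectomized dogs and overlapped in sham dogs, and the differences were -0.15 ± 0.07 and -0.04 ± 0.07, neither called. Its second probe set, almost as bright (mean 11.90), was called lower in both, at -0.22 (adjusted p = 0.0372) and -0.27 (adjusted p = 0.0171), so the gene's probe sets disagree. NDUFA11 and NDUFS5 were the members with positive differences in both comparisons, at 0.03 and 0.07 for NDUFA11 and 0.02 and 0.03 for NDUFS5, far from the threshold.

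The assembly factors of complex I held some of the largest differences. NDUFAF7 is a methyltransferase that modifies a core subunit during assembly. Its signal was 6.92, 6.70, 7.36, 6.997 and 7.28 in uninephrectomized atria, against 7.48, 7.82, 7.70, 7.51 and 7.79 in uninephrectomized ventricles. In sham atria it was 7.34, 7.52, 7.62, 7.38 and 6.95, against 7.89, 7.87, 7.58, 7.78 and 7.79 in sham ventricles. The difference was -0.61 ± 0.13 (adjusted p = 0.00159), the largest of any member in uninephrectomized dogs, with no overlap. In sham dogs it was -0.42 ± 0.13 (adjusted p = 0.0246), a call lost without sham atrium 5, without sham ventricle 1 or 2, or with the 3' gap as a covariate, which is the excess of 3' over upstream signal of control genes and a gauge of RNA integrity.

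NDUFAF6 acts early in complex I assembly. Uninephrectomized atria had 8.63, 8.62, 8.99, 8.55 and 8.67, against 9.46, 9.10, 9.07, 9.30 and 9.33 in uninephrectomized ventricles. Sham atria had 8.55, 8.75, 9.10, 8.64 and 8.36, against 9.08, 9.20, 9.74, 9.13 and 9.20 in sham ventricles. Array 3 was the highest of its group except in uninephrectomized ventricles, where it was the lowest, and the chambers overlapped in sham dogs only. Differences were -0.56 ± 0.14 (adjusted p = 0.00508) and -0.59 ± 0.14 (adjusted p = 0.00468). The next brightest probe sets of NDUFAF6, NDUFAF7, NDUFV3 and NDUFA9 were called lower in both comparisons as well. NDUFAF1 and NDUFAF3 were called in uninephrectomized dogs at -0.23 ± 0.08 and -0.20 ± 0.06, a call lost for NDUFAF1 in 9 alternatives, while NDUFAF4 had larger but noisier differences of -0.42 ± 0.18 and -0.44 ± 0.18 that were not called.

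**Figure D4:**
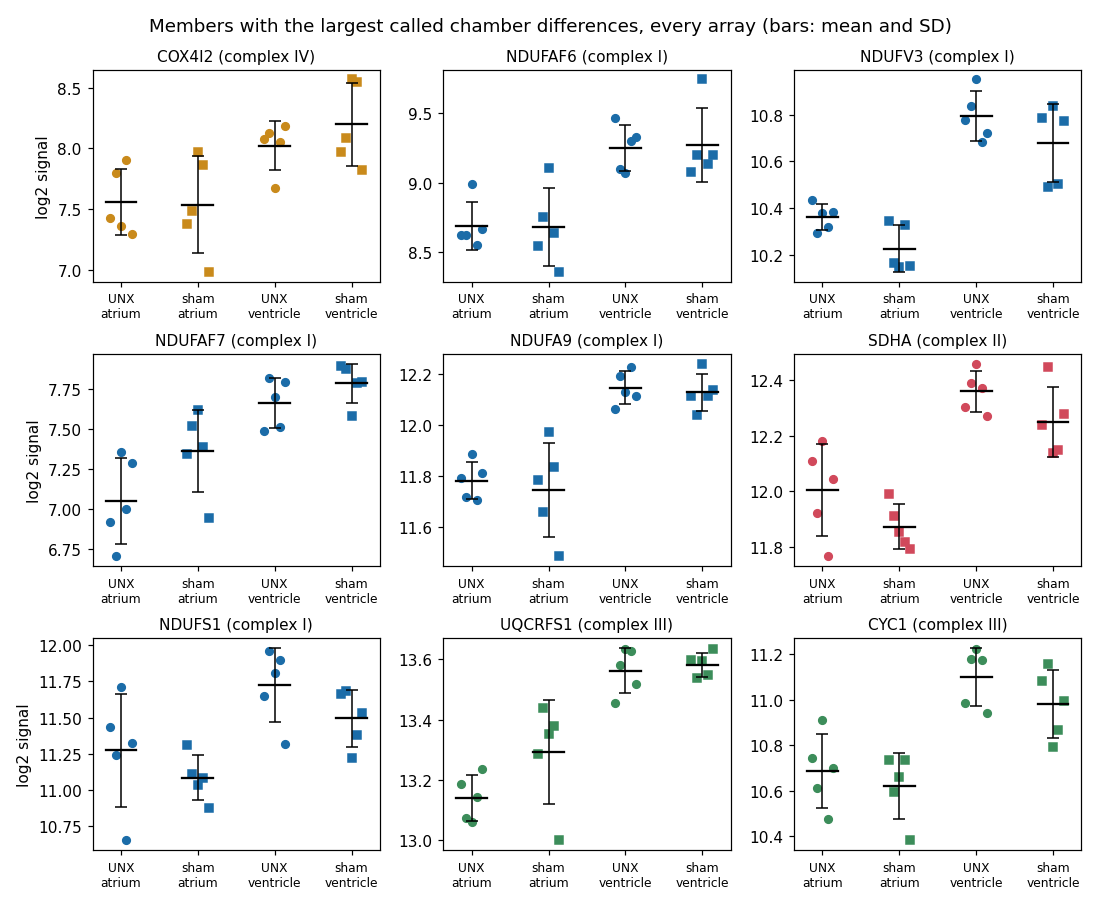
Signal on every array (y axis, log2, its own range in each panel) of the 9 members with the largest called chamber differences, with circles for uninephrectomized (UNX) and squares for sham dogs and bars at the mean and SD of 5 arrays. NDUFV3, NDUFA9, SDHA, UQCRFS1 and CYC1 separate the chambers in both operation groups, while COX4I2 and NDUFS1 overlap in both.

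Complex IV, cytochrome c oxidase, contributed 8 tested genes. Of these 3 were lower in the atrium in uninephrectomized dogs (median -0.21) and 4 in sham dogs (median -0.20). Several of its subunits come as tissue-specific isoforms. COX6A1, COX6B1, COX6B2, COX7A2 and COX8C had no probe set with a single matching symbol and were not analysed here, so the heart and muscle forms could not be set beside their general counterparts.

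The muscle isoform COX6A2 was lower in the atrium in both operation groups. It had 12.15, 11.95, 12.01, 12.16 and 12.14 in uninephrectomized atria, against 12.42, 12.28, 12.30, 12.38 and 12.27 in uninephrectomized ventricles. Sham atria had 12.00, 12.20, 12.00, 12.00 and 12.10, against 12.28, 12.36, 12.45, 12.24 and 12.52 in sham ventricles. The chambers did not overlap, and the differences were -0.25 ± 0.07 (adjusted p = 0.00880) and -0.31 ± 0.07 (adjusted p = 0.00260). A dimmer COX6A2 probe set (mean 9.79) was called in uninephrectomized dogs at -0.18 and not in sham dogs at -0.11 (adjusted p = 0.204). The other muscle isoform, COX7A1, had 12.93, 12.83, 12.96, 12.80 and 12.80 in uninephrectomized atria and 13.04, 12.96, 13.02, 13.16 and 12.98 in uninephrectomized ventricles. Its sham values were 12.83, 13.04, 13.18, 13.11 and 12.89 in atria and 12.97, 13.01, 13.22, 13.16 and 13.07 in ventricles. The chambers overlapped and neither difference was called, at -0.17 ± 0.07 and -0.07 ± 0.07. COX5B, a matrix-side subunit, was called in both, at -0.27 ± 0.06 and -0.23 ± 0.06.

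COX4I1 is the general and COX4I2 the hypoxia-responsive isoform of subunit 4, and in single-cell studies of mouse and human tissue COX4I2 is found largely in pericytes and vascular smooth muscle. COX4I1, the brightest complex IV probe set, read 13.48, 13.56, 13.39, 13.46 and 13.54 in uninephrectomized atria and 13.72, 13.63, 13.60, 13.74 and 13.53 in uninephrectomized ventricles. In sham dogs it read 13.38, 13.58, 13.64, 13.61 and 13.45 in atria and 13.62, 13.68, 13.88, 13.62 and 13.70 in ventricles. It was not called, at -0.16 ± 0.07 and -0.17 ± 0.07, and the sham value is 0.0046 after quantile normalization. COX4I2 had 7.43, 7.80, 7.36, 7.91 and 7.30 in uninephrectomized atria, against 8.08, 8.13, 7.67, 8.06 and 8.18 in uninephrectomized ventricles. Its sham signal was 7.38, 7.49, 7.97, 7.86 and 6.98 in atria, against 7.97, 8.09, 8.57, 8.55 and 7.82 in ventricles. The chambers overlapped in both operation groups. COX4I2 showed the largest difference of any member in sham dogs, -0.66 ± 0.19 (adjusted p = 0.0159), and -0.46 ± 0.19 (adjusted p = 0.0736) in uninephrectomized dogs, where 6 alternatives made the call. The sham call is lost without sham atrium 5, with only the sham groups in the fit, or with the 3' gap as a covariate. The second COX4I2 probe set is dim (mean 2.16) and was not called, at 0.07 and -0.17. Within the smooth muscle and pericyte list, the pericyte genes RGS5 and KCNJ8 differed by -0.75 and -1.45 in uninephrectomized dogs, both called. In sham dogs they differed by -0.39 and -0.78, not called. The smooth muscle genes ACTA2, MYH11 and TAGLN were higher in both. All 5 other genes of the list, CNN1 and the pericyte gene PDGFRB among them, had positive differences in both comparisons. The part of these markers in the COX4I2 difference was not tested.

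COX7A2L, which helps join complexes III and IV into supercomplexes, had 9.005, 8.91, 8.89, 8.89 and 8.86 in uninephrectomized atria, against 9.30, 9.46, 9.41, 9.19 and 9.18 in uninephrectomized ventricles. Sham atria had 9.07, 9.07, 9.08, 8.99 and 8.84, against 9.48, 9.19, 9.28, 9.21 and 9.36 in sham ventricles. It separated the chambers in both operation groups, at -0.40 ± 0.07 (adjusted p = 0.000409) and -0.29 ± 0.07 (adjusted p = 0.00636). A second probe set of about the same brightness (mean 9.04) was called in uninephrectomized dogs at -0.35 and not in sham dogs at -0.17 (adjusted p = 0.228). COX8A, the general isoform of subunit 8, had 10.75, 10.55, 10.78, 10.73 and 10.64 in uninephrectomized atria and 10.76, 10.90, 10.74, 10.56 and 10.62 in uninephrectomized ventricles. Its sham arrays read 10.80, 10.70, 10.90, 10.62 and 10.54 in atria and 10.67, 10.54, 10.84, 10.50 and 10.80 in ventricles, and the differences were -0.03 ± 0.09 and 0.04 ± 0.09. The other COX8A probe sets (means 10.47, 10.43 and 10.25) had positive differences in both comparisons. These were 0.01, 0.01 and 0.07 in uninephrectomized and 0.11, 0.19 and 0.19 in sham dogs. None was called (lowest adjusted p = 0.0703, in sham dogs). NDUFA4 was first assigned to complex I and is now counted as a subunit of cytochrome c oxidase. It gave 12.97, 12.90, 12.85, 13.00 and 12.99 in uninephrectomized atria and 12.95, 13.00, 12.97, 13.11 and 12.96 in uninephrectomized ventricles, and in sham dogs 12.99, 13.24, 13.12, 13.01 and 12.95 in atria and 13.01, 12.94, 13.18, 13.06 and 13.22 in ventricles. Its differences were -0.06 ± 0.07 and -0.02 ± 0.07, so COX8A and NDUFA4 overlapped between chambers, and each changes sign under some alternatives. NDUFA4L2, the hypoxia-induced relative of NDUFA4, lay below the filter, with a signal of 1.87, 1.78, 1.91, 1.67 and 1.91 in uninephrectomized atria, 1.95, 1.68, 1.92, 1.90 and 1.70 in sham atria, 1.80, 1.67, 1.79, 2.00 and 1.68 in uninephrectomized ventricles and 1.88, 1.97, 1.86, 1.94 and 1.85 in sham ventricles. It was not tested.

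Complex V, ATP synthase, had the smallest median difference, -0.16 in uninephrectomized and -0.15 in sham dogs. Of the bright probe sets 28.1% and 24.2% were called lower in these comparisons, and of complex V 3 of 10 genes in each. Those were ATP5F1C, the central shaft subunit, at -0.21 ± 0.06 and -0.21 ± 0.06, ATP5PO, which holds catalytic head and stalk together, at -0.22 ± 0.07 and -0.20 ± 0.07, and ATP5J2, a membrane subunit, at -0.24 ± 0.06 and -0.25 ± 0.06. The ATP5PO call is lost in 3 alternatives in uninephrectomized and in 11 in sham dogs. The replicate block is among them in both (adjusted p = 0.0657 and 0.101). The ATP5F1C call is lost in 1 and 4 alternatives. The second ATP5J2 probe set was called in uninephrectomized dogs at -0.26 and not in sham dogs at -0.16 (adjusted p = 0.182). All 10 genes had negative differences in both comparisons. Complex V holds 5 of the 10 brightest members, and over all members the median difference was smaller in the brightest 23 (-0.17 and -0.16) than in the dimmest 23 (-0.25 and -0.22). The part of signal level in the small differences of ATP synthase was not tested. The medians shrink to -0.06 and -0.05 when the arrays are quantile normalized, with 2 and 1 genes called. Limma's trended, robust variance called 6 genes of complex V in uninephrectomized and 5 in sham dogs. With only the sham groups in the fit 0 genes of complex V were called in sham dogs, 1 without sham atrium 5 and 5 without sham ventricle 2. The sham median of complex IV moved to -0.08 under quantile normalization. No complex median changed sign in any of the alternatives run.

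The catalytic subunit ATP5F1B, the brightest member of all, had 14.08, 14.13, 13.95, 14.11 and 14.03 in uninephrectomized atria and 14.21, 14.17, 14.14, 14.33 and 14.14 in uninephrectomized ventricles. Sham atria read 13.97, 14.18, 14.07, 14.07 and 14.06, and sham ventricles 14.19, 14.06, 14.39, 14.20 and 14.36. The chambers separated narrowly in uninephrectomized dogs and overlapped in sham dogs. Its differences of -0.14 ± 0.07 and -0.17 ± 0.07 were not called. The second ATP5F1B probe set (mean 13.30) was not called either, at -0.24 (adjusted p = 0.0519) and -0.16 (adjusted p = 0.222). After quantile normalization the differences of the brightest probe set are 0.068 and 0.028, so its sign depends on the normalization and no direction can be given for ATP5F1B.

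The genes ATP5MC1, ATP5MC2 and ATP5MC3 encode the same mature ring subunit behind different import sequences. ATP5MC1 had 13.51, 13.51, 13.55, 13.64 and 13.55 in uninephrectomized atria and 13.71, 13.73, 13.66, 13.79 and 13.69 in uninephrectomized ventricles, and in sham dogs 13.48, 13.78, 13.67, 13.69 and 13.46 in atria and 13.64, 13.66, 13.91, 13.64 and 13.79 in ventricles. ATP5MC2 had 11.43, 11.37, 11.54, 11.34 and 11.42 in uninephrectomized atria and 11.49, 11.46, 11.42, 11.59 and 11.53 in uninephrectomized ventricles, and in sham dogs 11.36, 11.31, 11.46, 11.45 and 11.39 in atria and 11.44, 11.42, 11.64, 11.55 and 11.57 in ventricles. ATP5MC3 had 13.36, 13.28, 13.30, 13.53 and 13.47 in uninephrectomized atria and 13.57, 13.54, 13.48, 13.61 and 13.54 in uninephrectomized ventricles, and in sham dogs 13.31, 13.57, 13.47, 13.49 and 13.40 in atria and 13.52, 13.46, 13.75, 13.62 and 13.61 in ventricles. The chambers of ATP5MC1 separated in uninephrectomized dogs, and the other comparisons overlapped. None of these genes was called, and all had negative differences: -0.16 and -0.11 for ATP5MC1, -0.08 and -0.13 for ATP5MC2, and -0.16 and -0.14 for ATP5MC3. The ATP5MC1 values turn to 0.017 and 0.056 after quantile normalization. ATP5IF1 encodes the inhibitor that stops ATP synthase from running in reverse. Its signal was 13.27, 13.14, 13.39, 13.42 and 13.41 in uninephrectomized atria and 13.32, 13.33, 13.33, 13.40 and 13.45 in uninephrectomized ventricles, and in sham dogs 13.20, 13.36, 13.39, 13.33 and 13.19 in atria and 13.26, 13.42, 13.56, 13.41 and 13.39 in ventricles. The chambers overlapped, with differences of -0.04 ± 0.07 and -0.11 ± 0.07 that were not called and a value of 0.044 in uninephrectomized dogs after quantile normalization.

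Genes beside the chain were examined as lists. Of 14 electron carrier and ubiquinone synthesis genes 7 were lower in the atrium in uninephrectomized and 6 in sham dogs, and 0 were higher. They include CYCS, cytochrome c itself, at -0.34 and -0.33, ETFB at -0.79 and -0.93 and ETFDH at -0.77 and -0.75, which feed electrons from fatty acid oxidation to ubiquinone, and the ubiquinone synthesis genes COQ6 at -0.82 and -0.79 and COQ9 at -0.71 and -0.59. Of 11 citrate cycle and mitochondrial content genes 4 were lower in each comparison (IDH3A, SUCLG1, SUCLA2 and VDAC1), and 0 were higher. CS, citrate synthase, often used as a gauge of mitochondrial content, differed by -0.20 and -0.15 and was not called. Of 9 regulators GABPA, a transcription factor of respiratory chain genes, was lower in both comparisons, at -0.37 and -0.46, TFAM at -0.83 and POLRMT at -0.54, which act in the transcription of mitochondrial DNA, in uninephrectomized dogs, and the fatty acid receptor PPARA at -0.80 in sham dogs. PPARGC1A, a coactivator of mitochondrial gene programs, differed by -0.12 and -0.12 and was not called.

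Assembly genes outside the symbol pattern were mixed. Of 7 further complex I assembly genes 4 were lower in uninephrectomized dogs and 1, ECSIT, in sham dogs (-0.76 and -0.59). Complex II (4 genes) and ATP synthase (3 genes) assembly lists had 0 genes called in either direction. For complex III, LYRM7 was lower and UQCC3 higher in uninephrectomized dogs, out of 5 genes. For complex IV, 2 of 11 genes were lower (COX11 and TACO1) and 2 higher (COX15 and SCO1) in uninephrectomized dogs, and COX11 was lower in sham dogs.

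Uninephrectomy was compared with sham within each chamber, to ask whether the loss of a kidney altered these genes, and no member passed the test. Limma called 0 of 70 members in the atrium, 0 in the ventricle and 0 for the difference between the chambers' responses, where the share of all probe sets called was 0% in each. At an unadjusted p under 0.05 there were 3, 1 and 0 members, and 2010, 2005 and 893 of all probe sets. The median member difference, uninephrectomy minus sham, was -0.03 in the atrium and -0.02 in the ventricle. The operation groups overlapped for all 70 members in both chambers, where 0.436% of all probe sets had every uninephrectomized array above every sham array in the atrium and 0.493% below, and 0.396% above and 0.596% below in the ventricle. The 95% confidence interval lay within 0.5 log2 of 0 for 66 of 70 members in the atrium and 65 in the ventricle, and within 0.25 log2 for 50 and 51.

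**Figure D5:**
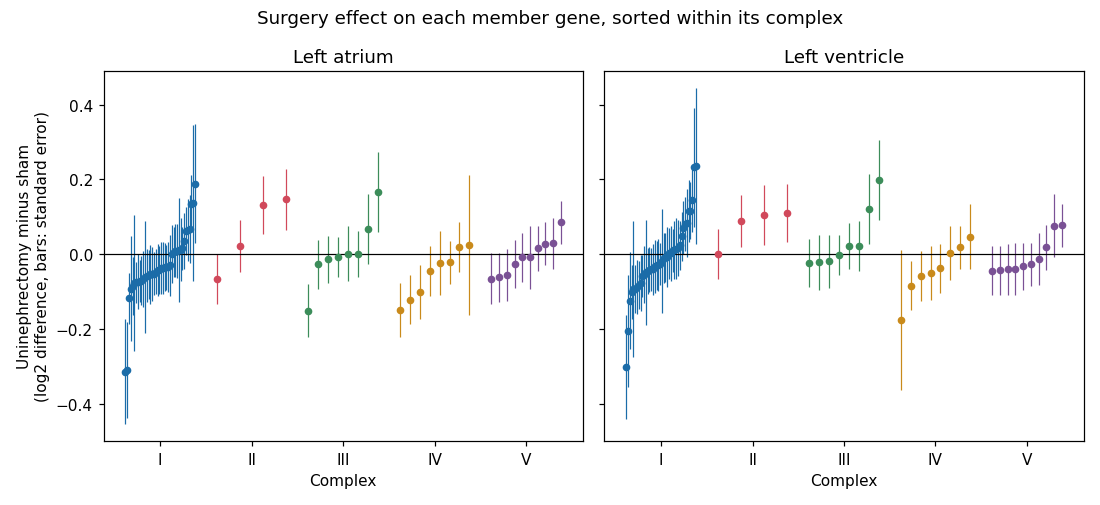
Uninephrectomy minus sham difference (y axis, log2, bars: SE) of each of the 70 tested members, sorted within its complex, in the left atrium and the left ventricle, with 5 arrays per group. No difference passed the test, and the lowest in each chamber is that of NDUFAF2, at -0.31 in the atrium and -0.30 in the ventricle.

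Of the members with the smallest p, NDUFAF2, which takes the place of NDUFA12 in a late complex I intermediate, was on the low side in both chambers. It had 7.23, 6.87, 7.08, 6.87 and 7.37 in uninephrectomized atria, against 6.98, 7.50, 7.59, 7.63 and 7.31 in sham atria. Uninephrectomized ventricles had 7.36, 7.09, 7.35, 7.42 and 7.47, against 7.34, 7.35, 7.83, 7.82 and 7.86 in sham ventricles. The groups overlapped in each chamber, and the differences were -0.31 ± 0.14 (unadjusted p = 0.0367, adjusted p = 0.735) and -0.30 ± 0.14 (unadjusted p = 0.0440, adjusted p = 0.740). In the atrium NDUFAF7 averaged 7.05 ± 0.27 in uninephrectomized and 7.36 ± 0.26 in sham dogs (SD, n = 5 each), a difference of -0.31 ± 0.13 (adjusted p = 0.697). UQCRFS1 differed there by -0.15 ± 0.07 (adjusted p = 0.735).

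On the other side, SDHC, SDHA and NDUFV3 had the smallest p of the positive atrial differences, at 0.15 ± 0.08, 0.13 ± 0.08 and 0.13 ± 0.08. Their ventricular differences were 0.10, 0.11 and 0.12 in the same order. In the ventricle UQCRC1 read 13.26, 13.19, 13.40, 13.21 and 12.97 in uninephrectomized and 13.08, 13.14, 12.96, 12.85 and 13.01 in sham dogs, a difference of 0.20 ± 0.11 (adjusted p = 0.758). Its atrial arrays read 13.09, 12.76, 13.15, 12.56 and 12.68 in uninephrectomized and 12.69, 12.61, 12.84, 12.75 and 12.53 in sham dogs, at 0.17 ± 0.11. The operation groups of UQCRC1 overlapped in both chambers. NDUFS8 stood at 0.14 ± 0.08 in the ventricle, and NDUFS3 and NDUFA7 at -0.09 ± 0.06 and -0.10 ± 0.07.

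By complex, the atrial medians of uninephrectomy minus sham were -0.04 for complex I, 0.08 for complex II, -0.0039 for complex III, -0.03 for complex IV and -0.01 for complex V. The ventricular medians were -0.02, 0.10, 0.01, -0.04 and -0.03 in the same order. Complex II thus had the highest median in each chamber, from 4 genes, none of which was called. The atrial response minus the ventricular response ranged from -0.19 for NDUFAF7 to 0.20 for COX4I2, and the adjusted p was 1.00 for each member. Among the members with the smallest p for that difference were UQCRFS1 at -0.13 ± 0.10, NDUFS8 at -0.13 ± 0.12, NDUFB9 at -0.11 ± 0.10, NDUFA7 at 0.11 ± 0.10, COX4I2 at 0.20 ± 0.26 and ATP5IF1 at 0.07 ± 0.10. The same test compares the chamber differences of the 2 operation groups, so the counts of 35 and 28 lower members were not accompanied by any member whose own chamber difference was called as changed between the operation groups.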

How the data were processed

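Left atrial and left ventricular RNA of uninephrectomized and sham dogs was measured on 20 canine expression arrays, 5 per group. The authors' deposited signals are log2 values between 0.43 and 15.0. Trizol RNA, 100 ng per array, went into the Affymetrix IVT Express kit, per the labels. The sources used here do not give how the authors summarized and normalized the probes, and no scanner-level background call was possible and the number of arrays limits the precision.

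Probe sets were named through the platform annotation, in which 29264 of 43035 have 1 symbol, 439 several and 13332 are not listed. After 111 control probe sets were left out, the 30% with the lowest mean (below log2 1.87) were not tested, which left 30047. Limma 3.58.1 in R 4.3.3 fitted the 4 group means (lmFit, contrasts.fit and eBayes, 16 residual degrees of freedom), with Benjamini-Hochberg adjustment over all probe sets tested and a threshold of 0.05. The fit was tested on simulated data. The 3' gap of an array is the mean, over ACTB, EEF1A and GAPDH control probe sets, of the 3' signal minus the middle one (the 5' one for GAPDH).

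Members and lists were chosen with earlier results of these data known. Genes given in every array were those with the 6 largest called chamber differences per comparison, the 3 smallest p per direction for surgery, the brightest gene of each complex and the complex IV and V isoforms. Numbers in the labels paired sham atria with sham ventricles by the data alone: same-numbered arrays correlated by 0.209 to 0.463 in their deviations from the group means. Those of uninephrectomized dogs correlated by -0.235 to 0.115. The main fit treated no arrays as pairs. For the chamber comparisons, the replicate block joined same-numbered arrays in both operation groups, although the data do not pair those of uninephrectomized dogs. Alternatives comprised normalization, filter, variance model, array weights, replicate block, probe set choice and leaving out each array.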

Additional observations from a re-analysis of the deposited data

Results flagged for a closer look

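The 29 tested named members and the mean of all tested members were checked in each group. Of these 120 checks, 6 found an array far from the other 4 of its group by Dixon's test, and chance alone gives about 1 in 20. COX4I2 read 7.67 in uninephrectomized ventricle 3, where the other uninephrectomized ventricles lay between 8.06 and 8.18. NDUFAF6 read 8.99 in uninephrectomized atrium 3, against 8.55 to 8.67 in the others. NDUFAF6 also read 9.74 in sham ventricle 3, against 9.08 to 9.20. NDUFB6 read 13.31 in uninephrectomized ventricle 2, against 13.22 to 13.24. NDUFS3 read 12.06 in sham ventricle 4, against 12.26 to 12.34. UQCRH read 13.96 in uninephrectomized ventricle 4, against 13.80 to 13.84.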

How the results depend on the processing

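Over 21 settings the count of members called lower in the atrium ranged from 25 to 40 in uninephrectomized and from 19 to 36 in sham dogs, and the medians from -0.23 to -0.18 and from -0.22 to -0.14. Leaving out 1 array gave 25 to 37 and 19 to 31. The replicate block gave 31 and 24. In sham dogs, whose numbers pair, it ended the calls of ATP5PO, NDUFB5, NDUFB11 and SDHD. In uninephrectomized dogs, whose numbers did not pair by the data, it ended those of ATP5PO, NDUFAB1, NDUFC1, NDUFS1 and UQCR11 and made that of COX4I2. It changed no other chamber call of a member. Members called higher numbered 1 in uninephrectomized dogs with quantile normalization (UQCRH), and 2 in uninephrectomized and 1 in sham dogs with all probe sets of a gene. Surgery counts stayed at 0 in every alternative run.

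Signs of small chamber differences turned for some members, and the cause was not tested. With quantile normalization 6 of the 10 complex V differences were negative in uninephrectomized and 7 in sham dogs, where all 10 were negative as reported. Among complex I genes of sham dogs 35 were negative, against 37 as reported. The cases that follow cover the named genes only. With quantile normalization uninephrectomized dogs had UQCRH 0.14, ATP5F1B 0.068, ATP5MC1 0.017 and ATP5IF1 0.044, and sham dogs UQCRH 0.12, COX4I1 0.0046, ATP5F1B 0.028, NDUFA4 0.032 and ATP5MC1 0.056. With all probe sets, uninephrectomized dogs had COX8A 0.011 and ATP5IF1 0.020, and sham dogs NDUFA4 0.062. NDUFA4 in sham dogs was 0.00014 with array weights and 0.041 with the 3' gap. Leaving out 1 array gave ranges of -0.065 to 0.019 for COX8A and -0.066 to 0.0046 for ATP5IF1 in uninephrectomized dogs, and of -0.0035 to 0.087 for COX8A and -0.063 to 0.014 for NDUFA4 in sham dogs. For the named genes only, over comparison (surgery included, where none was called) and alternative, 1178 other values kept direction and side of the threshold. Of the rest 18 passed it only in an alternative and 17 lost it. Over all members, quantile normalization ended 9 sham calls and made 1, and the trended, robust variance made 8. Without uninephrectomized atrium 2, 10 calls of uninephrectomized dogs were lost.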

Other observations

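The 2 arrays with the lowest member signal were also those with the highest fibroblast marker means of their groups, but other arrays did not all follow this. Uninephrectomized atrium 2 had a member mean of 11.56 and a fibroblast list mean of 9.58, and sham atrium 5 had 11.55 and 9.29. Sham atrium 1 had the next lowest member mean of its group (11.65, with 54 of 70 members below the group mean) and the lowest fibroblast mean (8.21). Among ventricles, the array with the lowest member mean had the highest fibroblast mean in sham dogs (ventricle 1, 7.98). In uninephrectomized dogs it did not (ventricle 5, 7.88, against 8.05 in ventricle 3). How far member signal and fibroblast markers are connected was not tested.

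Members differed in brightness, and the chamber difference was described in 3 groups of 23, 24 and 23 by mean signal. Median differences were -0.17 for the brightest, -0.22 for the middle and -0.25 for the dimmest group in uninephrectomized dogs, with 12, 12 and 11 members called lower. The sham medians were -0.16, -0.21 and -0.22, with 9, 10 and 9 members lower.

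The 64 further tested probe sets of the members had 51 negative chamber differences in each operation group. In uninephrectomized dogs 28 were called lower and 2 higher, and in sham dogs 16 lower and 1 higher. The higher ones belong to UQCRC2 in both comparisons and to NDUFAB1 in uninephrectomized dogs.

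The 3' gap averaged 1.10 ± 0.26 in uninephrectomized atria and 1.14 ± 0.15 in uninephrectomized ventricles, and 1.19 ± 0.19 in sham atria and 1.42 ± 0.27 in sham ventricles (SD, n = 5 each). Its parts did not move together. The EEF1A gap averaged 0.89 in uninephrectomized atria and 1.31 in their ventricles, and 0.98 and 1.62 in sham dogs. For ACTB the means were 0.65 and 0.49 in uninephrectomized and 0.77 and 0.84 in sham dogs. For GAPDH they were 1.77 and 1.62, and 1.82 and 1.81. With the mean gap as a covariate 38 members were lower in uninephrectomized and 25 in sham dogs.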
